A study of Mus musculus with 26 samples.

Results

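The members described here are the genes for the protein parts of the cytosolic ribosome, 49 of the 18193 genes that the array's annotation names by a single symbol. A gene was a member where its symbol had the form Rps or Rpl with a number, or was Rplp0, Rplp2 or Rpsa, and kinases of Rps6 were left out. Of the 49 members, 23 belong to the small subunit and 26 to the large subunit, the Rplp proteins of its stalk included. The members have 105 probe sets in all, 25 members have 1, and where a member has several, the one that is brightest on average across the 26 arrays stands for it. A further 110 probe sets carry a ribosomal protein symbol together with other symbols. They name no gene here, and 28 ribosomal protein symbols, Rplp1, Rpl3, Rpl5 and Rpl10 among them, occur only there.

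The study measured inguinal mammary gland RNA of mice on Affymetrix whole-genome mouse arrays, 1 mouse per array as the labels read. Glands of CBA/CaH (5 arrays) and QSi5 mice (5 arrays) were taken on pregnancy day 12. Glands of CBA/CaH (3 arrays), QSi5 (3 arrays) and an advanced intercross line, or AIL (10 arrays), were taken on lactation day 9. The AIL is the 14th generation of a cross of both strains, and its sample names fall into 5 AC and 5 AQ animals, whose meaning is not given in the sources used here. No animal was treated, so strain and stage are the only labelled differences. Values are log2 intensities, and every difference below is a difference of log2 values. The limma p-values measure the spread between these arrays and are adjusted over all 45037 probe sets tested. A member is called at an adjusted p under 0.05.

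A ribosome is made of a small subunit, which reads the messenger RNA, and a large subunit, which joins the amino acids. Most of its proteins are made from short, abundant messenger RNAs that begin with a C and a run of pyrimidines, the 5′ terminal oligopyrimidine (TOP) motif, through which mTOR signalling controls their translation. In the mammary gland, alveoli grow by cell division in pregnancy, and in lactation their secretory cells make large amounts of a few milk proteins.

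The pyrimidine run is shown first, because it is a known feature of this family's messages, although it was not found at every annotated start below. RefSeq's table of transcript starts (mouse build GRCm38.p6) holds 43 of the 49 members. Rpl7, Rpl8, Rps14, Rps20, Rps29 and Rps4l are not in the table. A run was counted where a C on the sense strand, within 10 bases of an annotated start, was followed by at least 5 letters that were each C or T. By that search 24 of the 43 members had a run at an annotated start (55.8%), against 5702 of all 27025 genes in the table (21.1%). The windows below belong to 8 of the 10 members whose stage difference, in at least 1 strain, was called in the same direction under all 4 scalings between arrays (20.4% of the members, against 42.3% of all genes). The other two are Rps4l and Rps19, which has 3 annotated starts. Each is 30 bases long, runs 5′ to 3′ on the strand of the gene, is centred on the annotated start, and has the run in capitals.
Rpl14, chr9:120571502-120571531, plus strand: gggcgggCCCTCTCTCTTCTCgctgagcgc
Rpl13a, chr7:45128731-45128760, minus strand: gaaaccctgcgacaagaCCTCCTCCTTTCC
Rpl12, chr2:32961697-32961726, plus strand: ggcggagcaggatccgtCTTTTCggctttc
Rpl27a, chr7:109519180-109519209, plus strand: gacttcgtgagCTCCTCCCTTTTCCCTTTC
Rps27l, chr9:66946071-66946100, plus strand: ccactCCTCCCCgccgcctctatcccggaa
Rpsa, chr9:120127751-120127780, plus strand: gtgggttatttaaggacgtcatttccggcc
Rps25, chr9:44407699-44407728, plus strand: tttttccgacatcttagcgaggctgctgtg
Rpl7l1, chr17:46782642-46782671, minus strand: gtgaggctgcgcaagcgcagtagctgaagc
The first 5 windows hold a run, and the last 3 hold none at these annotated starts. The runs of Rpl13a and Rpl27a go on past the end of the window, with full lengths of 14 and 20 bases. Rps27l has a further annotated start without a run. Members with a run moved both ways. Rpl14, Rpl13a and Rpl12 were lower at lactation, Rpl27a and Rps27l were higher, and Rpsa, Rps25 and Rpl7l1, without a run in this window, were lower. Over the 24 members with a run, the median lactation minus pregnancy difference was -0.29 in CBA/CaH and -0.31 in QSi5. Over the 19 without one it was -0.25 and -0.36. After cyclic loess all 4 medians were above 0 (0.12 and 0.15 with a run, 0.18 and 0.03 without). On the deposited values 11 of the 24 were called lower and 2 higher in CBA/CaH, and 8 of the 19 lower and 1 higher, where 29.5% of all genes were called lower and 30.4% higher. In QSi5 the counts were 13 and 2 with a run and 8 and 0 without, beside 32.7% and 33.0% of all genes. A match is only a match of letters at an annotated start.

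Most members gave some of the highest values on the array. The mean over all arrays was 12 or more for 35 members, while 12 members had a mean under 9, among them the copies Rpl3l, Rpl39l and Rps4l. The highest member was Rpl41 at 14.21 and the lowest Rps16 at 3.43, each a level of its own probe set only. The median member lay between the 99.44 and 99.78 percentile of all genes on every array. Arrays 3, 4 and 5 of both pregnancy groups, array 2 of QSi5 at lactation and AC array 1 stood apart in 1 or more marker lists or in RNA quality, by over 1 log2 unit above their group's median. On QSi5 pregnancy array 4 the 3′ signal of Gapdh exceeded its 5′ signal by 6.50, against 0.54 to 2.86 on the other arrays.

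The first question was how the members differed between mid-pregnancy and lactation in each strain. On the values as deposited, 23 members were called lower and 3 higher at lactation in CBA/CaH, where 29.5% of all genes were called lower and 30.4% higher. In QSi5 25 members were called lower and 2 higher, against 32.7% and 33.0% of all genes. Most members lie above a mean level of 5, and among genes of at least that level more were called lower. The shares there were 40.1% lower and 22.3% higher in CBA/CaH, and 43.9% and 23.9% in QSi5. The median difference over members was -0.29 in CBA/CaH and -0.36 in QSi5, where all genes had medians of 0.05 and 0.04, but after cyclic loess scaling the members' medians turned to 0.17 and 0.08. By a count over members, 23 were called lower in both strains, 2 higher in both and none in opposite directions. The share of all genes called alike in both strains on the deposited values was not counted. That agreement is therefore no result about the family. In CBA/CaH the stages did not overlap for 24 members that were lower and 3 that were higher at lactation, beside 29.5% and 29.0% of all genes. In QSi5 this held for 21 lower and 1 higher, beside 28.2% and 29.1%. In a whole gland, fewer cells of a type and less RNA per cell cannot be told apart.

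Members of both subunits were called lower on the deposited values. In CBA/CaH 10 of 23 small subunit members and 13 of 26 large subunit members were called lower, with medians of -0.23 and -0.41. In QSi5 the counts were 12 and 13, with medians of -0.32 and -0.40. All 4 medians changed sign after cyclic loess, to 0.22 and 0.12 in CBA/CaH and to 0.08 and 0.06 in QSi5. The unnamed probe sets that carry a ribosomal protein symbol among several had 45 of 110 called lower and 3 higher in CBA/CaH, and 54 and 3 in QSi5. Of all genes 29.5% were called lower and 30.4% higher in CBA/CaH, and 32.7% and 33.0% in QSi5. A share over all probe sets was not counted, and the unnamed sets were counted on the deposited values only.

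**Figure D1:**
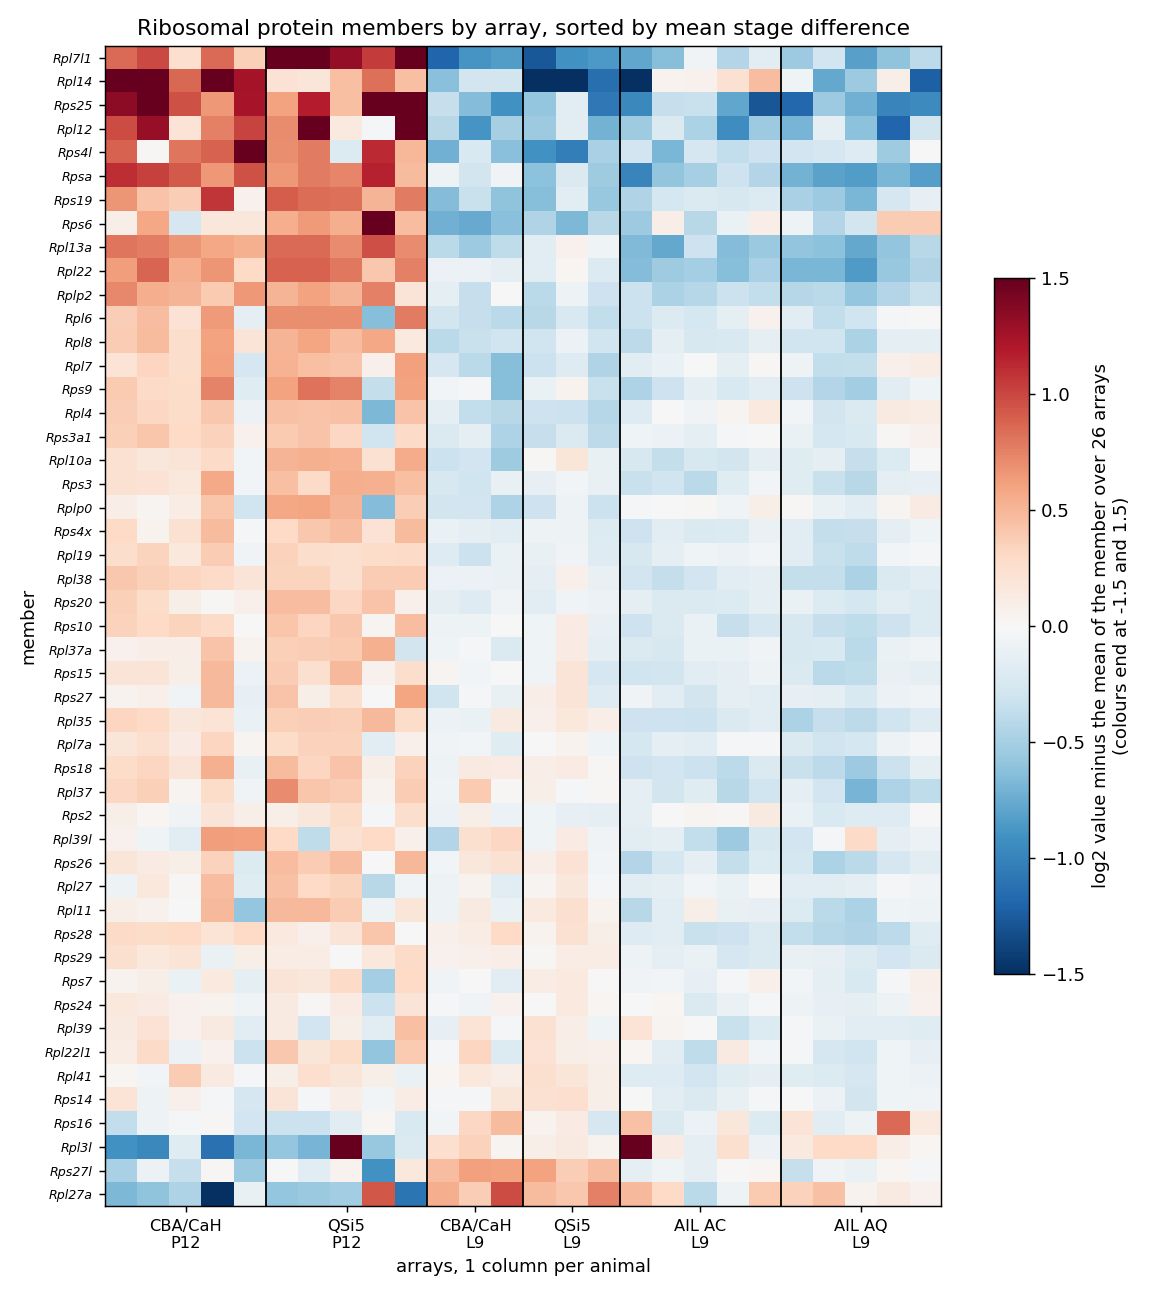
Colour gives each member's log2 value minus its own mean over 26 arrays, with members in rows, sorted by mean stage difference, and arrays in columns by group (P12 is pregnancy day 12, L9 lactation day 9). On these deposited values 23 members were called lower at lactation in both strains, and the share of all genes meeting that rule was not counted. The median member lost this direction after cyclic loess. Rpl27a and Rps27l, at the bottom, were called higher in both strains on these values.

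How far the family fell depended on the scaling between arrays. With all array medians set equal, 28 members were called lower and 2 higher in CBA/CaH, beside 34.1% and 20.3% of all genes, and 36 and 0 in QSi5, beside 38.4% and 21.4%. After quantile normalization 13 were lower and 4 higher in CBA/CaH (20.7% and 28.5% of all genes), and 15 and 3 in QSi5 (23.2% and 30.4%). After cyclic loess, which fits the difference between arrays along the range of intensity, 8 were lower and 17 higher in CBA/CaH (21.0% and 22.5% of all genes), and 8 and 16 in QSi5 (24.0% and 25.2%). Setting medians equal moved the median of all genes from 0.05 to -0.12 in CBA/CaH and from 0.04 to -0.18 in QSi5, so that setting holds a shift of its own.

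Other bright genes were set beside the members. The 88 other genes with a mean of 12 or more had a median stage difference of -0.08 in CBA/CaH as deposited and 0.51 after cyclic loess, and 0.07 and 0.68 in QSi5. The members' medians lay below those of these genes in each of the 4 scalings in both strains. The mean of 12 or more was taken over all arrays, and more arrays come from lactation than from pregnancy. That choice favours genes that are high at lactation, whereas members were chosen by symbol. How far it moved the medians of the other bright genes was not tested, so no conclusion is drawn from the gap. As deposited, 34.1% of all 123 genes at that level, members included, were called lower and 18.7% higher in CBA/CaH. In QSi5 the shares were 35.0% and 22.0%. Among the 35 members at that level 17 and 19 were called lower and none higher, on the deposited values.

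**Figure D2:**
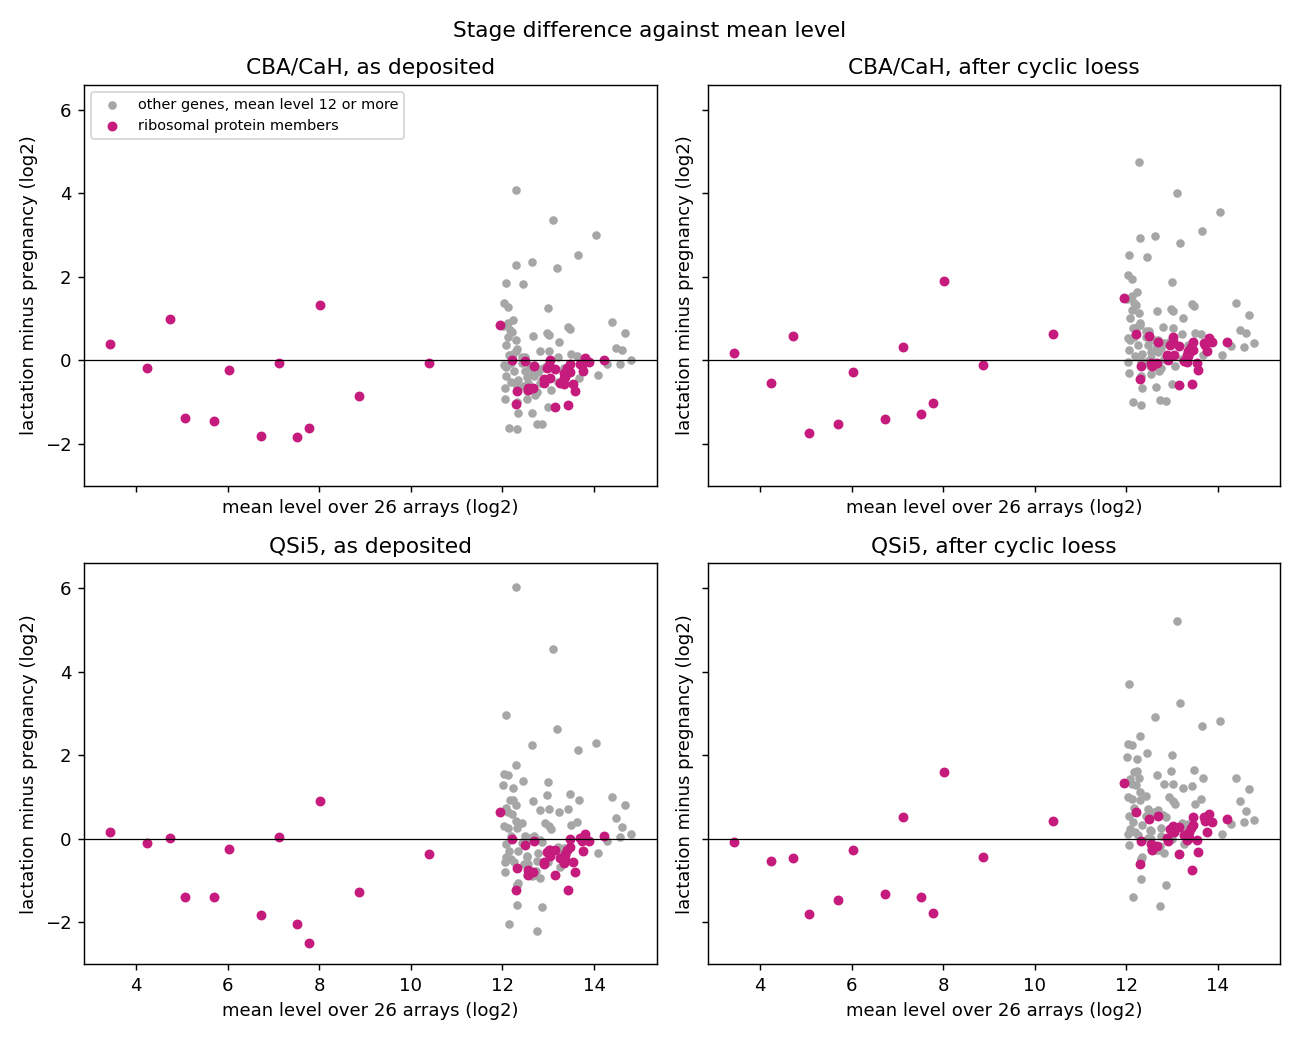
The lactation minus pregnancy difference (log2) is plotted against the mean level over 26 arrays (log2) for the 49 members and for the 88 other genes with a mean of 12 or more, as deposited on the left and after cyclic loess on the right. The members' median moved from -0.29 to 0.17 in CBA/CaH and from -0.36 to 0.08 in QSi5, and that of the other bright genes from -0.08 to 0.51 and from 0.07 to 0.68.

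In all, 8 members were called lower at lactation in both strains under all 4 scalings, 16.3% of the 49, a share near the 15.7% of all genes that met the same rule. They were Rpsa, Rps19, Rps25 and Rps4l of the small subunit and Rpl7l1, Rpl12, Rpl13a and Rpl14 of the large subunit. Of these Rpsa, Rps19 and Rpl13a have mean levels of 12 or more. The sets of the others are far dimmer, with means of 7.77 (Rpl7l1), 7.51 (Rpl14), 6.72 (Rps25), 5.70 (Rpl12) and 5.07 (Rps4l). Which transcripts these dim sets measure was not tested, so the falls given below are those of the sets.

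Rpsa is a small subunit protein that is also known as the laminin receptor precursor. It read 14.54, 14.46, 14.36, 14.08 and 14.38 on the CBA/CaH pregnancy arrays and 13.36, 13.16 and 13.38 at lactation. In QSi5 it read 14.08, 14.22, 14.17, 14.59 and 13.91 at pregnancy and 12.81, 13.22 and 12.90 at lactation. Every pregnancy value lay above every lactation value in each strain. The difference was -1.07 (SE 0.15, adjusted p = 5.6e-05) in CBA/CaH and -1.22 (SE 0.15, adjusted p = 1.21e-05) in QSi5. After cyclic loess, the scaling that moved it most, it was -0.57 and -0.74. Averaged with its second probe set, whose mean over all arrays is 3.68, it was -0.33 and -0.44, still called.

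Rps19, which the small subunit needs for its maturation and which is mutated in Diamond-Blackfan anaemia, read 12.37 to 13.37 at pregnancy and 11.65 to 11.97 at lactation in CBA/CaH. In QSi5 it read 12.82 to 13.21 at pregnancy and 11.67 to 12.15 at lactation. The stages did not overlap in either strain, with differences of -1.05 (SE 0.19, adjusted p = 0.000351) and -1.22 (SE 0.19, adjusted p = 7.15e-05). After cyclic loess the CBA/CaH difference was -0.44 with an adjusted p of 0.0479, close to the threshold.

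Rps25, a small subunit protein that certain viral and cellular internal ribosome entry sites require, fell most among small subunit members. Its pregnancy values were 8.07, 8.35, 7.68, 7.37 and 7.96 in CBA/CaH and 7.32, 7.90, 7.17, 9.01 and 8.24 in QSi5. At lactation it read 6.37, 6.07 and 5.81 in CBA/CaH and 6.14, 6.56 and 5.65 in QSi5. The stages stood apart on every array, by -1.80 (SE 0.35) and -1.81 (SE 0.35). Rps4l, a copy of Rps4x, is a dim probe set that fell from 5.92 ± 0.59 (SD, n = 5) to 4.55 ± 0.26 (SD, n = 3) in CBA/CaH and from 5.65 ± 0.49 (SD, n = 5) to 4.26 ± 0.29 (SD, n = 3) in QSi5. Rps4x, its bright counterpart, differed by -0.34 and -0.49 as deposited and by 0.18 and 0.03 after cyclic loess.

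Rpl14 and Rpl7l1 had the largest falls of the large subunit members. Rpl14 read 9.05, 9.51, 8.37, 9.06 and 8.76 at pregnancy and 6.89, 7.24 and 7.24 at lactation in CBA/CaH. In QSi5 it read 7.73, 7.70, 7.97, 8.34 and 7.97 at pregnancy and 5.86, 5.50 and 6.38 at lactation. The stages were apart in each strain, and QSi5 lay below CBA/CaH on every array of both stages. The stage differences were -1.83 (SE 0.24, adjusted p = 2.14e-05) and -2.03 (SE 0.24, adjusted p = 5.68e-06).

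Rpl7l1, a Rpl7-like protein that acts in assembly of the large subunit, read 8.02 to 8.75 at pregnancy and 6.58 to 6.94 at lactation in CBA/CaH. In QSi5 it read 8.82 to 9.70 and then 6.50 to 6.91. The falls were -1.63 (SE 0.21) and -2.48 (SE 0.21). The interaction of strain and stage was not called for it (-0.85, SE 0.29, adjusted p = 0.714). Rpl7, the ribosomal protein it resembles, differed by -0.66 and -0.74 as deposited.

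Rpl12, a protein near the base of the stalk, fell from 6.55 ± 0.41 (SD, n = 5) to 5.10 ± 0.25 (SD, n = 3) in CBA/CaH. In QSi5 its pregnancy arrays spread from 5.66 to 7.81, and its 3 lactation arrays read 4.98 to 5.52, all lower. Rpl13a, which also takes part in the GAIT complex that silences inflammatory messages, read 13.68 to 13.96 at pregnancy and 12.60 to 12.76 at lactation in CBA/CaH. In QSi5 it read 13.85 to 14.12 and then 12.98 to 13.21. It was the bright member with the largest fall in CBA/CaH, at -1.11 (SE 0.11, adjusted p = 1.58e-06), and it fell by 0.87 (SE 0.11) in QSi5.

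**Figure D3:**
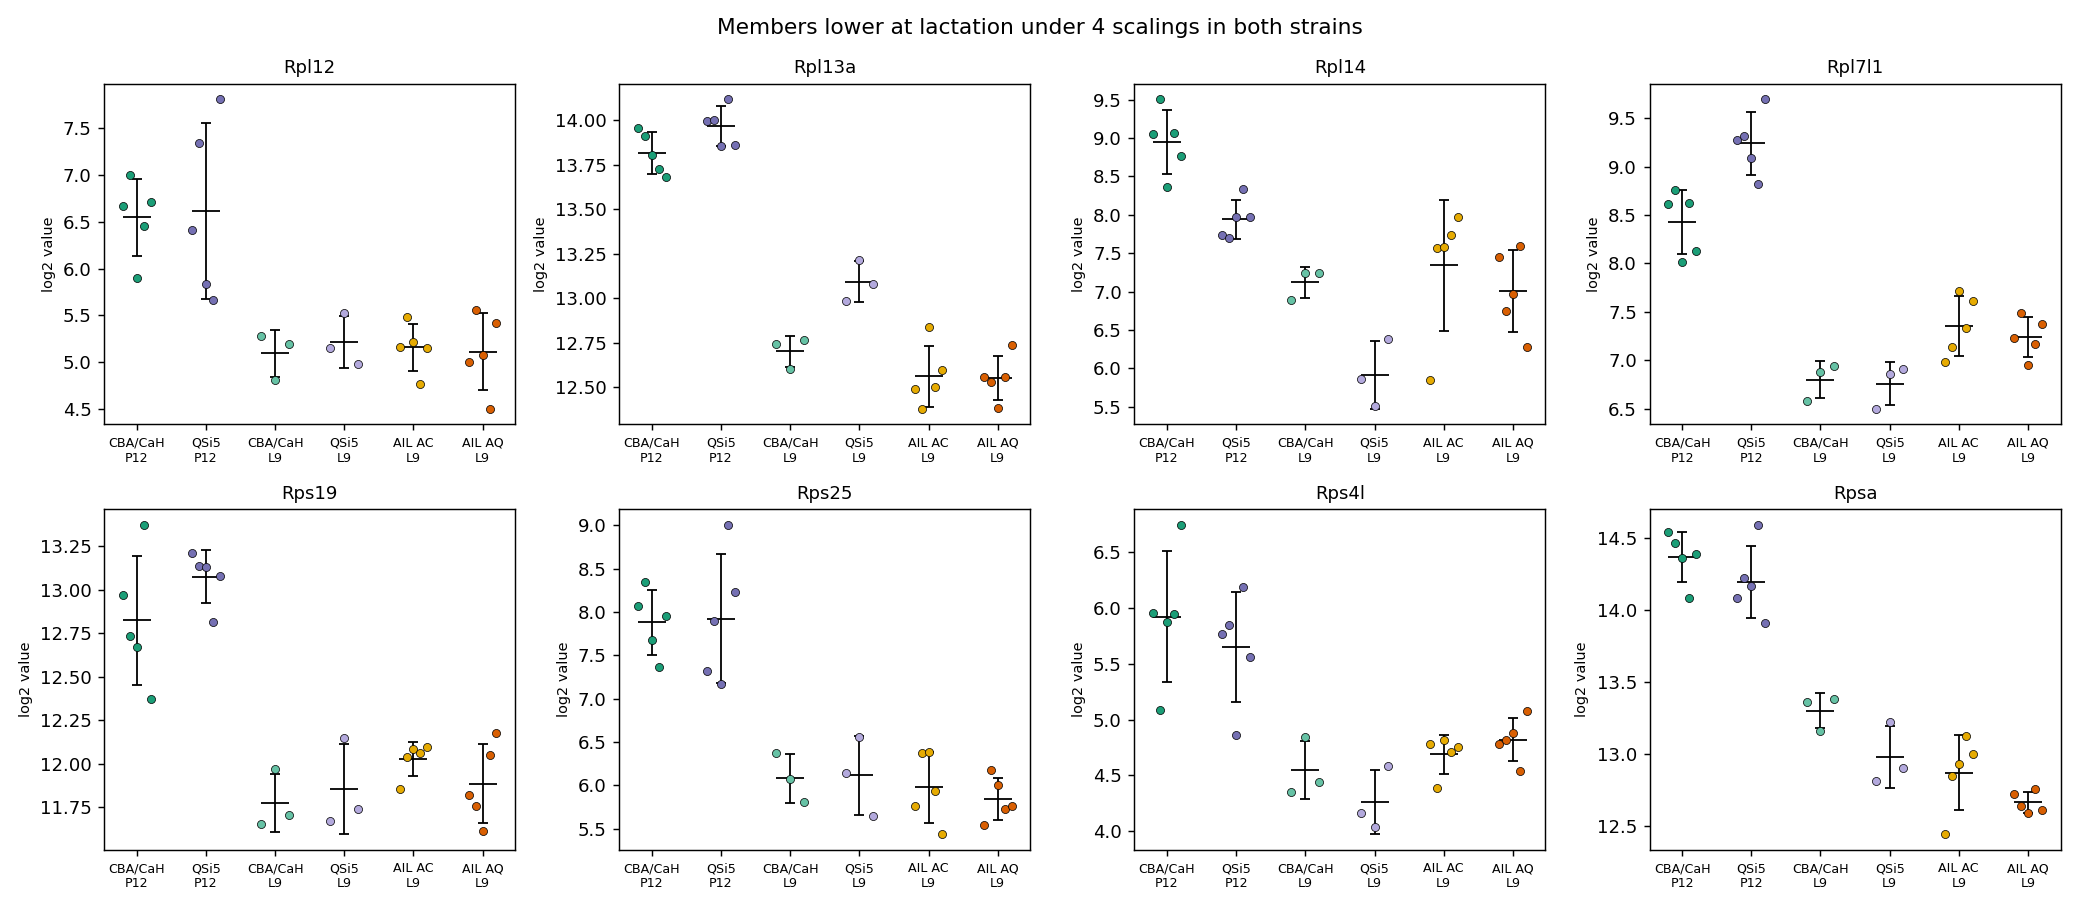
Points are log2 values of single arrays in the 6 groups and bars are the mean and SD, for the 8 members called lower at lactation in both strains under all 4 scalings. In each panel every pregnancy array of a strain lies above every lactation array of that strain, and Rpl14 of QSi5 lies below Rpl14 of CBA/CaH at both stages.

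The remaining named members of the stalk and subunits moved less or moved with the scaling. Of the stalk proteins, Rplp2 was called lower as deposited (-0.73 and -0.78) and kept a negative difference after cyclic loess without passing the test (-0.24 and -0.30). Rplp0, the stalk's base and a common reference gene for quantitative PCR, was not called in CBA/CaH (-0.41, SE 0.24, adjusted p = 0.153) or in QSi5 (-0.51, SE 0.24, adjusted p = 0.075). Its QSi5 pregnancy values were 13.92, 13.93, 13.84, 12.68 and 13.70, and without array 4, the low one, the QSi5 difference was -0.74 and was called. After cyclic loess its differences were 0.13 and 0.03.

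Rps6, the substrate of S6 kinase, read 8.62 to 9.45 at pregnancy and 8.12 to 8.25 at lactation in CBA/CaH. In QSi5 its pregnancy values ran from 9.33 to 10.46, the highest again on array 4, and its lactation values from 8.20 to 8.46. The differences were -0.85 (SE 0.22) and -1.26 (SE 0.22) as deposited. They were not called after quantile normalization (-0.19 and -0.49) or cyclic loess (-0.12 and -0.43). Rps3, which has repair activity outside the ribosome, was called lower as deposited by -0.44 and -0.54, and stood at 0.12 and 0.04 after cyclic loess. Rpl11, which binds Mdm2 under ribosomal stress, and Rps14, which lies in the decoding platform, were not called in either strain. Their differences were -0.02 and -0.15 for Rpl11 and 0.06 and 0.12 for Rps14.

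On the deposited values Rpl27a and Rps27l were called higher in both strains, against the direction of most members. Rps27l, a copy of Rps27 that p53 induces, read 11.46, 11.86, 11.60, 11.97 and 11.39 at pregnancy and 12.42, 12.57 and 12.55 at lactation in CBA/CaH. In QSi5 it read 11.96, 11.78, 12.01, 11.04 and 12.10 and then 12.55, 12.32 and 12.41. All lactation values were above all pregnancy values. The rise was 0.85 (SE 0.20, adjusted p = 0.00289) in CBA/CaH and 0.65 (SE 0.20, adjusted p = 0.0131) in QSi5. Its direction held in all 4 scalings, but the QSi5 difference was not called with equal array medians (0.43, adjusted p = 0.124) or without QSi5 lactation array 1 (0.59, adjusted p = 0.0545). Rps27 itself differed by -0.23 in each strain and was not called.

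Rpl27a is a large subunit protein whose set is dim, with a mean of 8.02 over all arrays, and which transcripts it measures was not tested. It read 6.42 to 7.91 at pregnancy and 8.39 to 9.00 at lactation in CBA/CaH, without overlap. In QSi5 array 4 of pregnancy read 8.95, and the other pregnancy arrays 6.93 to 7.50, against 8.42 to 8.78 at lactation. The rise was 1.32 (SE 0.37, adjusted p = 0.00772) in CBA/CaH and 0.91 (SE 0.37, adjusted p = 0.0454) in QSi5. With equal array medians it was 1.15 and 0.69, the latter not called. The QSi5 call was also lost without pregnancy array 1, 2, 3 or 5 or without any 1 lactation array (0.73 to 0.98, adjusted p 0.0748 to 0.135). Rps16 was called higher in CBA/CaH at 0.40 (adjusted p = 0.0303), but its probe set is the dimmest of all members, its arrays overlapped, and it was called in none of the other 3 scalings.

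Among the copies, those other than Rps4l, Rpl7l1 and Rps27l showed no called stage difference on the deposited values. Rpl22l1, the copy of Rpl22, differed by 0.02 and -0.01 (SE 0.21 each), while Rpl22 fell by 0.71 and 0.86 (SE 0.14 each). After cyclic loess Rpl22l1 was called higher in both strains (0.64 and 0.65), and Rpl22 was not called (-0.14 and -0.27). Rpl39l differed by -0.17 and -0.10, and Rpl39 by -0.06 and 0.04.

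Rpl3l takes the place of Rpl3 in ribosomes of skeletal and heart muscle. In CBA/CaH it read 3.81, 3.77, 4.54, 3.61 and 4.04 at pregnancy and 4.98, 5.08 and 4.77 at lactation, a difference of 0.99 that was not called (SE 0.52, adjusted p = 0.12), but was called with only the compared groups (0.99, adjusted p = 0.00265) and without the arrays that stand apart (1.16, adjusted p = 0.000152). In QSi5 its pregnancy values were 4.14, 4.03, 7.17, 4.16 and 4.52 and its lactation values 4.82, 4.86 and 4.78. In the AIL it read 6.25 on AC array 1 and 4.59 to 5.03 elsewhere. On those 2 high arrays the median of 7 skeletal muscle markers lay 6.38 and 4.74 above the markers' own means, against -1.12 to 1.41 on the other 24 arrays. Without QSi5 pregnancy array 3 the QSi5 stage difference was 0.61 and called (adjusted p = 0.0155). With it the difference was 0.01.

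**Figure D4:**
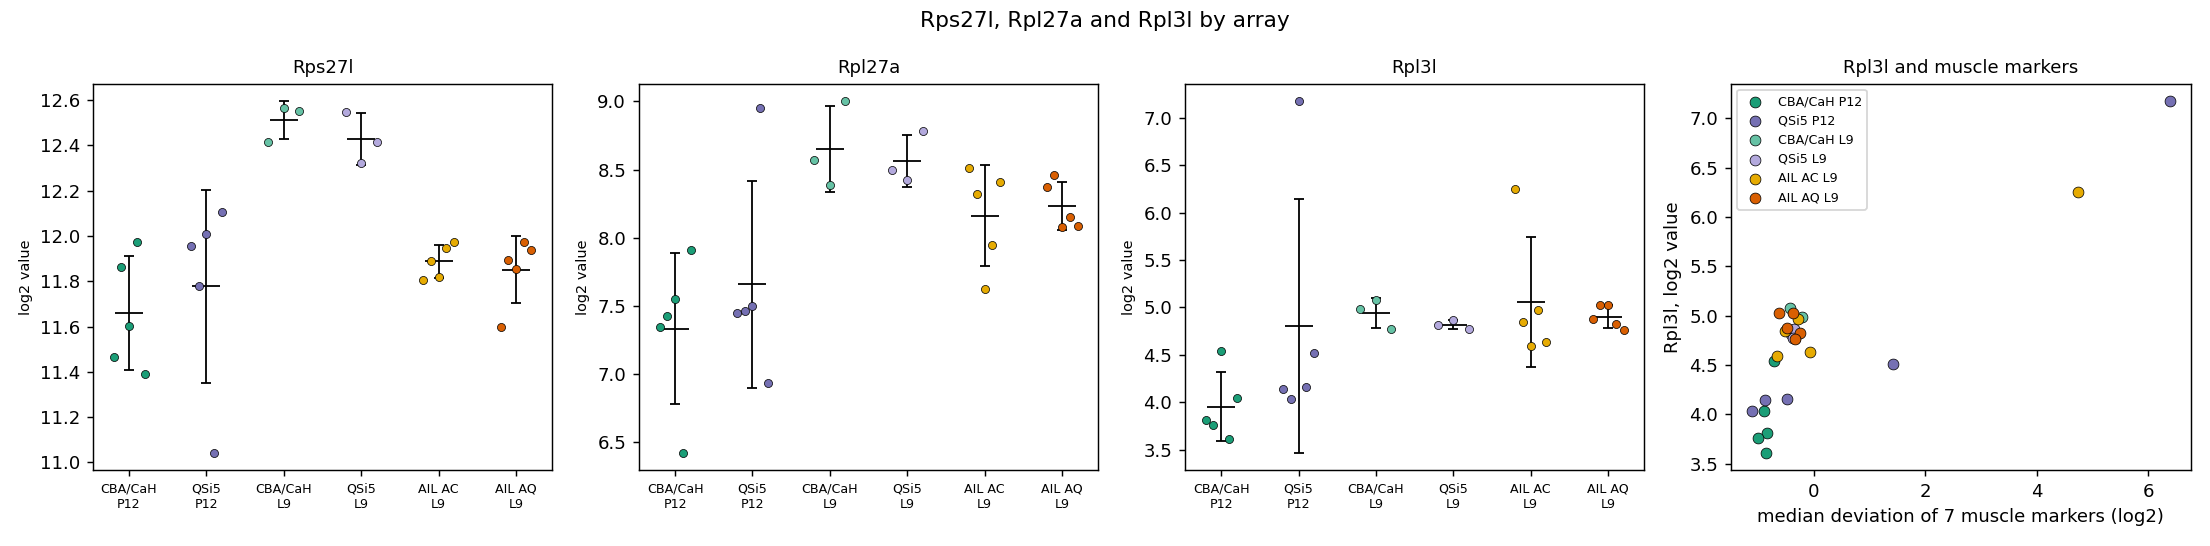
The first 3 panels show log2 values of single arrays with the mean and SD for Rps27l, Rpl27a and Rpl3l in the 6 groups, and the last sets Rpl3l against the median deviation of 7 skeletal muscle markers on each array. The Rpl3l values of 7.17 and 6.25 sit on the arrays with muscle marker medians of 6.38 and 4.74.

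Cell types and growth moved with stage too, and their part in the members' differences was not tested. The median of 3 cell division markers lay 2.20 to 3.77 above their own means on pregnancy arrays and at -2.38 to -0.77 on lactation arrays. Luminal epithelium markers (3 of 3 measured) had medians of 1.04 to 1.93 at pregnancy and -1.26 to -0.18 at lactation, and milk secretory markers (5 of 5) -2.32 to -0.12 and 0.31 to 1.02. Without the arrays that stand apart, each of the 8 members lower under all 4 scalings kept its call.

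Several members had further probe sets that did not move like the one used. Rpl22 has a dim set that fell far more, by 3.87 (SE 0.20) in CBA/CaH and 3.88 (SE 0.20) in QSi5, from 9.85 ± 0.32 (SD, n = 5) to 5.98 ± 0.31 (SD, n = 3) in CBA/CaH. Its 2 brighter sets fell by 0.71 and 0.37 in CBA/CaH. Rps3 has 2 dim sets, of which one rose by 1.36 and 1.63 and the other stood at -1.62 and -2.87. Rps24 has a pair of the same kind, at 0.95 and 0.93 and at -2.55 and -2.39. In all, 6 members had probe sets called in opposite directions: Rps18, Rps24, Rps3 and Rps6 in both strains, Rpsa in CBA/CaH and Rpl35 in QSi5. The 25 members with 1 set could not meet this rule. The share of all genes with several sets that met it was not counted, so the count is no result about the family. For Rpsa, Rps6 and Rpl35 the set that rose had a mean under 5. Which transcripts these sets measure was not tested.

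The pathway around the ribosome was described from lists of its other genes. Counts on the deposited values, here and in the next paragraph, stand beside the shares of all genes given above. These are 29.5% lower and 30.4% higher in CBA/CaH and 32.7% and 33.0% in QSi5. Counts after cyclic loess stand beside 21.0% lower and 22.5% higher in CBA/CaH, and 24.0% and 25.2% in QSi5. Of 13 measured TOP messages outside the family, 9 fell in CBA/CaH, 11 fell in QSi5 and none rose in either, led by the histone chaperone Nap1l1 (-2.90 and -2.85). After cyclic loess 3 fell and 1 rose in CBA/CaH, and 4 and 1 in QSi5. Of 15 genes of RNA polymerase I, which transcribes ribosomal RNA, 11 were lower in CBA/CaH, 12 were lower in QSi5 and none rose, with Polr1e at -1.74 and -2.45. After cyclic loess 6 and 9 fell and 1 rose in each strain. Of 47 assembly factors 34 fell and 1 rose in CBA/CaH, with 38 and 1 in QSi5, and after cyclic loess 19 and 5 and then 28 and 5. Ncl, the nucleolar protein nucleolin, fell by 2.90 (SE 0.33) and 3.45 (SE 0.33), and Nol6 was the factor that rose (0.78 and 0.64).

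Of 17 regulators of mTOR, TOP messages and Myc, 5 fell and 2 rose in CBA/CaH, against 6 and 2 in QSi5. Myc, which drives ribosome production, fell by 2.47 (SE 0.33) and 2.49 (SE 0.33). Rheb, the activator of mTORC1, rose by 0.71 (SE 0.28) and 1.03 (SE 0.28), and Mycn by 0.62 and 0.88. The list's median changed sign after cyclic loess and quantile normalization. Of 76 mitochondrial ribosomal proteins 39 fell and 2 rose in CBA/CaH, against 42 and 3 in QSi5, but this too depended on the scaling, with 12 lower and 19 higher after cyclic loess in CBA/CaH and 9 and 25 in QSi5. Of 30 initiation and elongation factors 14 fell and 2 rose in CBA/CaH, against 17 and 2 in QSi5. After cyclic loess 5 fell and 9 rose in CBA/CaH, against 6 and 9 in QSi5. The medians of the TOP, polymerase I and assembly lists stayed below 0 in both strains under all 4 scalings, where that of the members did not.

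The next question was whether the strains differed within a stage. At pregnancy 1 member was called lower and 1 higher in QSi5 than in CBA/CaH, beside 0.451% and 0.77% of all genes. Rpl14 was lower in QSi5, 7.94 ± 0.26 (SD, n = 5) against 8.95 ± 0.42 (SD, n = 5), by -1.01 (SE 0.21, adjusted p = 0.0206). Rpl7l1 was higher, 9.24 ± 0.32 (SD, n = 5) against 8.43 ± 0.33 (SD, n = 5), by 0.81 (SE 0.18, adjusted p = 0.0362). Neither pair of groups overlapped. With equal array medians 0 members were higher and 1 lower, beside 0.792% and 0.39% of all genes. After quantile normalization 1 and 1 were called, beside 0.583% and 0.412%, and after cyclic loess 1 and 1, beside 0.748% and 0.495%. Both calls were close to the threshold on the deposited values: with only the compared groups the adjusted p was 0.0587 for Rpl14 and 0.137 for Rpl7l1. Without array 1 or 2 of either strain Rpl14 was not called (0.0524 to 0.0695). Rpl7l1 was not called without array 1, 3 or 5 of CBA/CaH or 1, 2, 3 or 5 of QSi5 (0.0546 to 0.11), or without the arrays that stand apart (difference 0.61, adjusted p = 0.26). With the mean of its 3 probe sets the Rpl7l1 difference changed sign (-0.31, adjusted p = 0.236).

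At lactation limma called 0 members between the strains, beside 0.159% of all genes higher and 0.187% lower in QSi5. At an unadjusted p under 0.05 there were 2 higher, Rpl10a and Rpl13a, and 1 lower, Rpl14, beside 533 higher and 544 lower of all 18193 genes. Rpl14 stood at 5.91 ± 0.44 (SD, n = 3) in QSi5 and 7.12 ± 0.20 (SD, n = 3) in CBA/CaH, -1.21 (SE 0.26, adjusted p = 0.0918). After quantile normalization 0 members were higher and 1 was lower, beside 0.302% and 0.341% of all genes, and with array weights 1 was lower. The interaction of strain and stage was called for 0 members, and 1 was lower at an unadjusted p under 0.05, Rpl7l1. At that unadjusted threshold 427 of all 18193 genes were higher and 676 lower. Of all genes 0.044% were called higher and 0.055% lower for the interaction.

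Beyond the sets that stand for the members, a dim set of Rpl7l1 and one of Rps3 were called between the strains at pregnancy. The Rpl7l1 set, the dimmest of its 3, read 6.37 ± 0.21 (SD, n = 5) in CBA/CaH and 4.16 ± 0.10 (SD, n = 5) in QSi5, a difference of -2.22 (SE 0.14, adjusted p = 1.1e-07). At lactation the strains read 4.77 ± 0.21 (SD, n = 3) and 4.48 ± 0.33 (SD, n = 3), and the interaction was 1.93 (SE 0.23, adjusted p = 0.00178). The other 2 sets stood at 0.81 (called higher in QSi5, as above) and 0.49 (SE 0.13, adjusted p = 0.131). Of the 105 probe sets of members it was the one called for the interaction. The Rps3 set read 6.08 to 7.36 on the CBA/CaH pregnancy arrays and 7.53 to 8.42 on those of QSi5, without overlap. It was higher in QSi5 by 1.35 (SE 0.24, adjusted p = 0.00819), but not called without the arrays that stand apart (0.81, adjusted p = 0.34). At lactation the strains differed by 0.10 in this set.

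**Figure D5:**
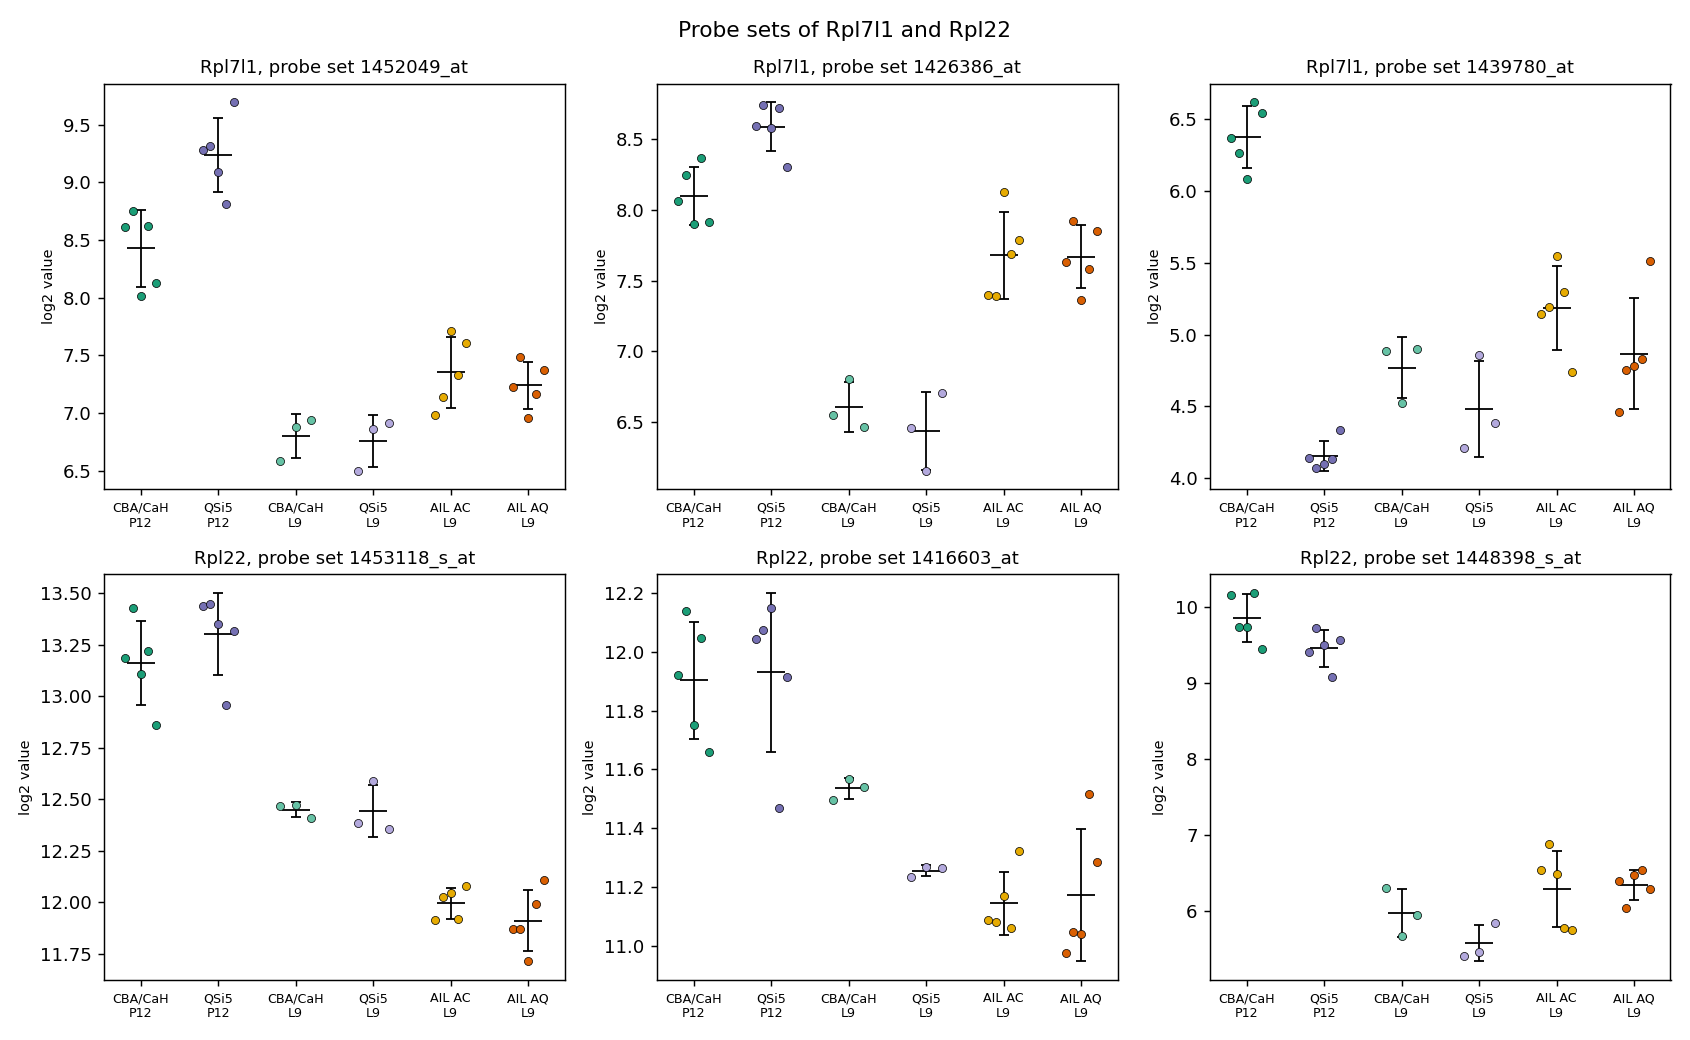
Points are log2 values of single arrays with the mean and SD for the 3 probe sets each of Rpl7l1 (top) and Rpl22 (bottom), ordered from the highest to the lowest mean. The dimmest Rpl7l1 set averaged 6.37 in CBA/CaH and 4.16 in QSi5 at pregnancy while the differences of the other sets were 0.81 and 0.49, and the dimmest Rpl22 set fell by 3.87 and 3.88 between the stages.

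The last question was how the AIL compared with its founder strains at lactation. Against CBA/CaH 11 members were called lower and 4 higher in the AIL, beside 16.2% and 18.0% of all genes. Against QSi5 13 were lower and 4 higher, beside 18.5% and 19.4%. Both comparisons share the 10 AIL arrays. The median difference over members was -0.07 against CBA/CaH and -0.16 against QSi5, beside -0.03 for all genes in each. With equal array medians it was 0.02 and -0.05, beside 0.06 and 0.08 for all genes. The sign of the family against CBA/CaH thus changed with a scaling that moved the median of all genes too. With that scaling 7 members were lower and 6 higher against CBA/CaH (9.63% and 22.2% of all genes), and 8 and 8 against QSi5 (9.86% and 24.7%). After quantile normalization 12 were lower and 2 higher against CBA/CaH (18.5% and 12.3%), and 14 and 5 against QSi5 (19.9% and 13.5%). After cyclic loess 18 were lower and 0 higher against CBA/CaH (14.9% and 14.0%), and 23 and 2 against QSi5 (16.2% and 14.7%). The Gapdh 3′ minus 5′ signal ran from 0.54 to 0.80 in the AIL and from 1.12 to 2.02 in the founder strains at lactation, without overlap. Fibroblast markers (4 of 4 measured) had medians of -0.21 to 0.70 around their own means in the AIL and -1.79 to -0.52 in the founders, also without overlap. White adipocyte markers (5 of 6 measured) ran from -0.73 to 0.81 in the AIL, against -1.79 to -0.81 for CBA/CaH and -1.15 to -0.60 for QSi5, and endothelium markers (4 of 4) from -0.86 to 0.32, -1.02 to -0.77 and -0.87 to -0.77. The part of RNA quality and of these cell types in the members' differences was not tested.

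Rps27l, which rose from pregnancy to lactation in the founders, was the member furthest below both founders in the AIL. Its AIL values ran from 11.60 through a median of 11.89 to 11.97, and the 6 founder arrays from 12.32 to 12.57. It was lower by -0.64 (SE 0.10, adjusted p = 7.73e-05) against CBA/CaH and -0.56 (SE 0.10, adjusted p = 0.000262) against QSi5. The dimmest of its sets ran from 11.27 to 11.75 in the AIL, also under all founder arrays (12.06 to 12.48). Its remaining set ran from 11.70 to 12.19 in the AIL and overlapped the founder arrays (12.08 to 12.39). Rpl22, a large subunit protein with roles in lymphocyte development, ran from 11.71 to 12.11 with a median of 11.96, under all founder arrays (12.36 to 12.59), by -0.50 and -0.49. Rps28 and Rps26, which lie by the exit of the messenger RNA channel, were lower by -0.46 and -0.43 and by -0.41 and -0.39. Rps18 was lower by -0.38 and -0.41. These 5 members, 10.2% of the 49, were called lower against each founder under all 4 scalings, as were 4.44% of all genes, and both comparisons use the same AIL arrays. For Rpl22 this rests on the brightest probe set: the next brightest stood at -0.10 against QSi5, and the mean of its 3 sets differed by -0.18 against CBA/CaH and 0.05 against QSi5, none of them called.

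Of the other members, Rpsa was lower than in CBA/CaH (-0.53, SE 0.12, adjusted p = 0.00323) and stood at -0.21 against QSi5. Rpl13a was lower than in QSi5 (-0.54, SE 0.10, adjusted p = 0.000781) and stood at -0.15 against CBA/CaH. Rpl37, Rpl35, Rpl41 and Rps29 were called lower against both, by -0.25 to -0.45. The Rps29 calls were lost, among other settings, with equal array medians (adjusted p = 0.153 and 0.2), with the replicate block, without any 1 CBA/CaH array against CBA/CaH, and without QSi5 array 2 or 3 against QSi5. Rpl27a was called lower against CBA/CaH (-0.46), a call that 7 of the 13 omissions of 1 array ended, and stood at -0.37 against QSi5. Rpl11, Rps10 and Rps14 were called lower against QSi5 (-0.25 to -0.34) and not against CBA/CaH (-0.14 to -0.22). Between the founders themselves at lactation, limma called 0 members, these included.

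On the higher side, Rpl14 stood out against QSi5. It ran from 5.85 through a median of 7.51 to 7.97 in the AIL, against 5.50 to 6.38 in QSi5 and 6.89 to 7.24 in CBA/CaH. The difference was 1.26 (SE 0.34, adjusted p = 0.00752) against QSi5 and 0.05 against CBA/CaH. Its AIL range spanned both founders, with AC array 1 (5.85) and AQ array 5 (6.28) inside the QSi5 range. Without QSi5 array 2 it was 1.06 and not called (adjusted p = 0.0596). Rpl7l1 was higher than both founders (0.50 and 0.54) on the deposited values, but not called after quantile normalization or cyclic loess, nor without CBA/CaH array 1 (0.39) or QSi5 array 1 (0.41). Rps4l was higher than QSi5 (0.49, SE 0.14, adjusted p = 0.00994) under all 4 scalings, as was Rpl14, but not without QSi5 array 1 (0.45) or 2 (0.38). Rps6 (0.61), Rplp0 and Rpl7 (0.33 each) were higher than in CBA/CaH and Rpl4 (0.32) than in QSi5 as deposited, none of them under all 4 scalings. Leaving out single arrays ended the calls of Rplp0 (without CBA/CaH array 3), Rpl7 and Rpl4.

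Within the AIL, limma called 0 members between AQ and AC animals, and 0.0% of all genes were called in either direction. At an unadjusted p under 0.05 there were 0 members, beside 267 higher and 256 lower in AQ of all 18193 genes. The largest member difference in size was that of Rpl14, at -0.33 (AQ minus AC), with AC values from 5.85 to 7.97 and AQ values from 6.28 to 7.60.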

How the data were processed

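Glands of 26 mice were measured, 1 Affymetrix array each. The deposited values are log2 intensities made by the authors with RMA, per the submitters' processing notes (version not given in the sources used here). Array medians still differ (5.00 to 5.30), so 3 further scalings were run on these values. Precision is limited by how many arrays each group has. Of 45101 probe sets 64 controls were left out. GEO's platform annotation gave 1 symbol to 34945 of the rest, several to 932 and none to 9160, and symbols can be old.

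Differences were tested with limma 3.58.1 (R 4.3.3, lmFit and eBayes) over 45037 probe sets with Benjamini-Hochberg adjustment. Strain and stage used the 4 founder groups, and AIL comparisons the lactation groups. The fit was tested on simulated data. Alternatives were 3 scalings, a mean level of at least 5, an intensity trend, array weights, other probe set rules, the compared groups alone, subsets of arrays, and the replicate number as a block. The comparison with other bright genes, the unnamed probe sets the rescaling of the related lists and of the members with a pyrimidine run, the further probe sets between strains and the shares of all genes under each setting were chosen after seeing the data. Figures used matplotlib 3.10.9 in Python 3.11.15.

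Named members were the 5 highest and 5 lowest called differences per comparison, all called where under 10, copies of other members, members with probe sets called both ways and a short set named always. The symbols of that set without a probe set of their own are not reported. In each related list up to 3 highest and 3 lowest called genes qualified. Members, lists and rules were chosen with earlier results of these data known. Marker lists measured on every array were milk secretory and luminal epithelium, white and brown adipocytes, skeletal muscle, endothelium, fibroblasts, macrophages, T cells, B and plasma cells and cell division.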

Additional observations from a re-analysis of the deposited data

Results flagged for a closer look

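In 14 of 136 groups of arrays examined, over 34 items, the gap between 1 array and its nearest neighbour was large against the range of the group, by Dixon's test. Chance flags about 1 in 20 groups where groups are independent, and these are not, since all items share the same arrays.

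QSi5 pregnancy array 4, whose Gapdh 3′ signal exceeds the 5′ signal by 6.50, gave 7 of the 14. The median deviation over members was 0.0904 there and 0.37 to 0.43 on the 4 remaining QSi5 pregnancy arrays. It was the low array for Rpl22 (12.96, others 13.32 to 13.45), Rpl22l1 (11.62, others 12.39 to 12.62), Rpl4 (12.66, others 13.76 to 13.78) and Rplp0 (12.68, others 13.70 to 13.93). It was the high array for Rpl27a (8.95, others 6.93 to 7.50) and Rps6 (10.46, others 9.33 to 9.51).

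Rpl3l was high on QSi5 pregnancy array 3 (7.17, others 4.03 to 4.52) and on AC array 1 (6.25, others 4.59 to 4.97), the arrays highest in skeletal muscle markers (medians 6.38 and 4.74 above their own means). AC array 1 was also low for Rpl14 (5.85, others 7.57 to 7.97) and Rps19 (11.85, others 12.04 to 12.10). CBA/CaH pregnancy array 5, whose brown adipocyte markers lay a median of 5.83 above their own means, was low for Rpl4 (13.25, others 13.61 to 13.73) and Rps10 (13.38, others 13.66 to 13.72). AC array 2 was low for Rps4l (4.39, others 4.71 to 4.82). The part of RNA quality or other tissue in these values was not tested.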

How the results depend on the processing

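The 8 members lower at lactation under all 4 scalings kept their stage calls in both strains under every alternative that could be run for them. Of 1517 values of 33 named members under alternatives, 1266 kept direction and call, 167 lost the call, 18 gained one and 20 changed sign with a call on at least 1 side. A further 46 changed sign without a call on either side, after cyclic loess those of Rplp0 (0.13 in CBA/CaH and 0.032 in QSi5), Rpl39 in CBA/CaH (0.33) and Rpl3l in QSi5 (-0.44). The cause of a change was not tested.

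With equal array medians 0 members were higher at lactation in QSi5 and 0 higher in QSi5 at pregnancy, and in the AIL 7 were lower than in CBA/CaH and 8 higher and 8 lower than in QSi5. After quantile normalization 13 (CBA/CaH) and 15 (QSi5) were lower at lactation, 1 was lower in QSi5 than CBA/CaH at lactation, and 2 were higher in the AIL than CBA/CaH. After cyclic loess 17 were higher and 8 lower at lactation in CBA/CaH, 16 and 8 in QSi5, with 0 higher and 18 lower in the AIL than CBA/CaH and 2 and 23 than QSi5.

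At pregnancy, 0 members were higher in QSi5 with an intensity trend, with the mean of all probe sets or without the arrays that stand apart, and 2 with array weights, which also called 1 lower at lactation. Without the arrays that stand apart 2 members were higher and 7 lower in the AIL than QSi5. With only the compared groups 1 was higher at lactation in QSi5, and 0 higher and 0 lower in QSi5 at pregnancy. AIL arrays 1 to 3 alone gave 2 higher than CBA/CaH, and arrays 4 to 5 alone 5 lower than CBA/CaH and 5 lower than QSi5. Plain _at probe sets gave 6 higher and 10 lower at lactation in CBA/CaH, 5 and 10 in QSi5, 7 lower in the AIL than CBA/CaH and 3 lower than QSi5. Members without such a set drop out there. How many remain was not counted, so their share cannot be set beside that of all genes. Of all genes with such a set, 31.7% were higher and 26.6% lower at lactation in CBA/CaH, and 34.6% and 29.8% in QSi5. In the AIL 16.6% of them were lower than in CBA/CaH and 19.2% lower than in QSi5.

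Replicate numbers recur between groups, but in no pair of groups did every same-numbered pair of arrays correlate over 0.1, so they pair nothing. With the replicate number as a block, 0 members were higher at lactation in QSi5, and 0 higher and 0 lower in QSi5 at pregnancy.

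Where a call was involved, signs changed for Rpl39 in CBA/CaH after quantile normalization (0.44). After cyclic loess they changed in CBA/CaH for Rpl11 (0.58), Rps10 (0.22), Rps20 (0.24), Rps3 (0.12) and Rps4x (0.18), and in QSi5 for Rpl11 (0.48), Rpl22l1 (0.65), Rpl38 (0.13), Rps10 (0.17), Rps2 (0.31), Rps3 (0.035) and Rps4x (0.031). With plain _at sets they changed for Rps10 (0.34 and 0.17 in CBA/CaH and QSi5), Rps3 (1.36 and 1.63) and Rps20 in CBA/CaH (0.21). With the mean of all probe sets they changed for Rpl7l1 at pregnancy (-0.31) and Rpl22 in the AIL against QSi5 (0.051).

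Leaving out 1 array at a time gave 18 to 25 members lower and 2 to 3 higher at lactation in CBA/CaH, and 20 to 30 lower and 0 to 2 higher in QSi5 (0 higher without QSi5 lactation array 1). Between strains it gave 0 to 1 higher and 0 to 1 lower at pregnancy, and 0 at lactation and for the interaction. The AIL had 7 to 11 lower and 2 to 5 higher than CBA/CaH (7 and 2 without CBA/CaH array 3), and 7 to 14 lower and 1 to 6 higher than QSi5 (1 higher without QSi5 array 1, and 2 higher and 7 lower without array 2).

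The share of all genes called moved too. Over the settings other than scalings and single arrays it ran from 26.4% to 40.1% lower and 22.3% to 34.1% higher at lactation in CBA/CaH, and from 29.6% to 43.9% and 23.9% to 38.2% in QSi5. In the AIL it ran from 10.7% to 17.7% lower and 15.3% to 25.0% higher against CBA/CaH, and from 11.9% to 20.3% and 13.8% to 26.7% against QSi5. Between strains at pregnancy it ran from 0.28% to 1.32% lower and 0.484% to 2.68% higher in QSi5. With single arrays left out it was 24.8% to 29.5% lower and 25.1% to 30.5% higher in CBA/CaH, 29.0% to 35.6% and 27.8% to 36.0% in QSi5, and in the AIL 9.88% to 16.2% and 12.2% to 18.0% against CBA/CaH and 12.2% to 18.4% and 13.7% to 19.5% against QSi5.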

Other observations

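Lists around the ribosome were counted in the AIL on the deposited values. Of 30 initiation and elongation factors 13 were called higher and 0 lower than in CBA/CaH, and 14 and 0 than in QSi5, where 18.0% and 19.4% of all genes were called higher. Of 13 TOP messages outside the family 5 were higher than in CBA/CaH and 6 than in QSi5, and 0 were lower. Of 47 assembly factors 7 were higher and 6 lower than in CBA/CaH and 17 and 1 than in QSi5, and of 15 RNA polymerase I genes 2 and 2 and then 5 and 1. Of all genes 16.2% and 18.5% were called lower. After cyclic loess the initiation and elongation factors had 9 higher and 4 lower against CBA/CaH, with a median of -0.08 (0.21 as deposited), and 11 and 4 against QSi5. The TOP messages then had 3 higher and 2 lower against CBA/CaH and 2 and 2 against QSi5. With that scaling 14.0% of all genes were higher and 14.9% lower against CBA/CaH, and 14.7% and 16.2% against QSi5.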
